A study of Mus musculus with 4 samples.

Results

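The genes described here are Psap, Grn, Hexa, Gaa, Gusb, Glb1 and Smpd1, which encode prosaposin, progranulin and 5 lysosomal hydrolases. Their peaks were those that the authors assigned to one of these 7 genes on the gene's own strand, and they came to 29 of 15511 peaks in replicate 1 and 30 of 22570 in replicate 2. Of the 7 genes, 6 had a peak in each library, and Smpd1 had none in either. The libraries are IGF2BP2 immunoprecipitates (IGF2BP2_IP) from mouse BMDMs, which are macrophages cultured from bone marrow, with 2 replicates, and 2 input samples that were not analysed here. The labels give no strain, genotype, age, treatment or time, and name no separate culture or animal for each replicate. They name an IGF2BP2 antibody in the sample fields but a monoclonal Flag antibody in the protocol, so which was used cannot be told apart.

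IGF2BP2 is an RNA-binding protein of the IGF2BP family, whose members bind mRNA and are described as readers of N6-methyladenosine (m6A). Lysosomal hydrolases are made in the endoplasmic reticulum, tagged in the Golgi and delivered to lysosomes, where macrophages use them to break down engulfed lipid, glycan and protein. Prosaposin is cut there into saposins, small proteins that present sphingolipids to the hydrolases, and progranulin is cut into granulins and travels with prosaposin.

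A peak is a stretch of the genome where the authors found sequenced tags stacked up, and its value is a tag count, the number of tags in it. No input value or expression value was used, so a peak from strong binding and a peak from an abundant RNA cannot be told apart. The libraries held 189393 and 324456 tags in peaks, a ratio of 1.71 for replicate 2 over replicate 1, and the lowest count listed was 3. Macrophage markers were present: of 10 listed, 8 had a sense peak in at least 1 library, among them Csf1r with 932 tags in replicate 1 and 1421 in replicate 2, while Lyz2 and Cd14 had none. Markers of T cells, B cells, neutrophils, erythroid cells and stroma had summed tags of 0 to 9 in replicate 1 and 0 to 10 in replicate 2, and Col1a1, Cd4, Cd79a and S100a8 were among those with no peak.

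Coding exons at the places the results turn on are shown first, because the highest point (summit) of a peak fell in the same exon in both libraries. Each is given 5′ to 3′ on the mRNA strand from the GENCODE transcript (mouse release 21, GRCm38), with capitals marking GGAC, the core of the m6A consensus, searched on the mRNA strand alone. Psap exon 7 lies at chr10:60295946-60296002 (plus strand), Psap exon 8 at chr10:60297537-60297545 (plus), Grn exon 7 at chr11:102434400-102434509 (plus), Grn exon 8 at chr11:102434703-102434826 (plus), Hexa exon 3 at chr9:59555339-59555404 (plus) and Gusb exon 9 at chr5:129995447-129995531 (minus). Psap exon 8, a cassette of 9 nt known for alternative splicing in the saposin B part of the protein, is shown as a contrast, since no peak covered it in either library.
Psap exon 7: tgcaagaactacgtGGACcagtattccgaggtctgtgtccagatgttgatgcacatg
Psap exon 8: caggatcag
Grn exon 7: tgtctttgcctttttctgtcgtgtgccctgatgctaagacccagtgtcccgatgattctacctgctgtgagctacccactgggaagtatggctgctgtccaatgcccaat
Grn exon 8: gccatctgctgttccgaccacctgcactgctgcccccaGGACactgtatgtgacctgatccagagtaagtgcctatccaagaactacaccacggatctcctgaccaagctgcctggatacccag
Hexa exon 3: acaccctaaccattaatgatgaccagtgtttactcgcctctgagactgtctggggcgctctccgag
Gusb exon 9: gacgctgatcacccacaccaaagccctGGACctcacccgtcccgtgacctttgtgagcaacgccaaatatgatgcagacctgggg
GGAC occurred once in 3 of these exons, Psap exon 7, Grn exon 8 and Gusb exon 9, and was not found in Psap exon 8, Grn exon 7 or Hexa exon 3.

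Of the 7 genes, 6 had a sense peak in replicate 1 and 6 in replicate 2, the same 6 genes, so 6 had one in both. Among all 21951 protein-coding genes, 22.0% had a sense peak in replicate 1, 26.7% in replicate 2 and 17.0% in both. Overlapping peaks, meaning peaks that shared at least 1 bp on the same strand, were present for 5 of the 7 genes (Psap, Grn, Hexa, Gusb and Glb1), against 9.07% of all protein-coding genes. With only 1 group of libraries there is no comparison between conditions, and these counts carry no test. Together the genes held 0.806% of the tags in peaks of replicate 1 (exact binomial 95% interval 0.766 to 0.848) and 0.859% of those of replicate 2 (0.828 to 0.892). The intervals cover counting error only. Whether PCR copies were removed is not known, and any left would be treated as separate molecules.

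Per kb of annotated exon, Psap had the most tags of these genes in both libraries, followed by Grn and Hexa. The tags are those of whole peaks, intronic parts included, so this is not a density within exons. In Psap 91.2% and 95.1% of the peak bases lay outside annotated exons, in replicate 1 and replicate 2. The share was 25.1% and 35% in Grn and 38.5% and 53% in Hexa. Psap had 215 tags per kb of exon in replicate 1 (exact Poisson 95% interval 198 to 233) and 535 in replicate 2 (508 to 563). Grn had 156 in replicate 1 (143 to 170) and 245 in replicate 2 (229 to 262). Hexa had 116 in replicate 1 (102 to 132) and 142 in replicate 2 (126 to 159). Within each library these intervals were separate, so the order of the first 3 genes went beyond counting error, although the ranges of Psap and Grn over the libraries overlapped. The order depended on the measure: per kb of gene span Grn came before Psap in both libraries, and by summed maximum height per kb of exon Hexa (113) came before Grn (84.6) in replicate 2. By tags per kb of exon, Psap ranked 7 of 4828 protein-coding genes with a peak in replicate 1. It ranked 4 of 5861 in replicate 2. Grn ranked 11 and 19 by the same measure, and Hexa 25 and 38. By summed tags, with no regard to length, the ranks were 19 and 11 for Psap, 23 and 36 for Grn, and 102 and 154 for Hexa.

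The other hydrolases lay lower. Gusb had 24.8 tags per kb of exon in replicate 1 (interval 20.5 to 29.9) and 22.9 in replicate 2 (18.7 to 27.7), and Glb1 had 15.0 (10.9 to 20.0) and 23.6 (18.4 to 29.8). In replicate 1 Gusb was higher and its interval was separate from that of Glb1, while in replicate 2 the intervals overlapped and Glb1 had the slightly higher value. That order rests on Glb1 peaks inside an exon of another gene, Tmppe. Without them Glb1 had 6.98 (4.32 to 10.7) and 17.0 (12.6 to 22.3). Gusb then had the higher value in both libraries, although in replicate 2 the intervals still overlapped. The order in replicate 2 also depended on the length measure. Per kb of gene span, with all peaks kept, Gusb had 7.41 tags there and Glb1 0.962. Gaa had 1.05 (0.339 to 2.44) and 2.51 (1.30 to 4.38), below the median gene with a peak, which had 2.11 tags per kb of exon in replicate 1 and 2.93 in replicate 2, though both intervals held that median. Summed tags per gene differed between the libraries by unequal factors. The ratio of replicate 2 over replicate 1 was 2.49 for Psap, 2.40 for Gaa, 1.58 for Glb1, 1.57 for Grn, 1.22 for Hexa and 0.920 for Gusb, beside 1.71 for all tags in peaks.

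**Figure D1:**
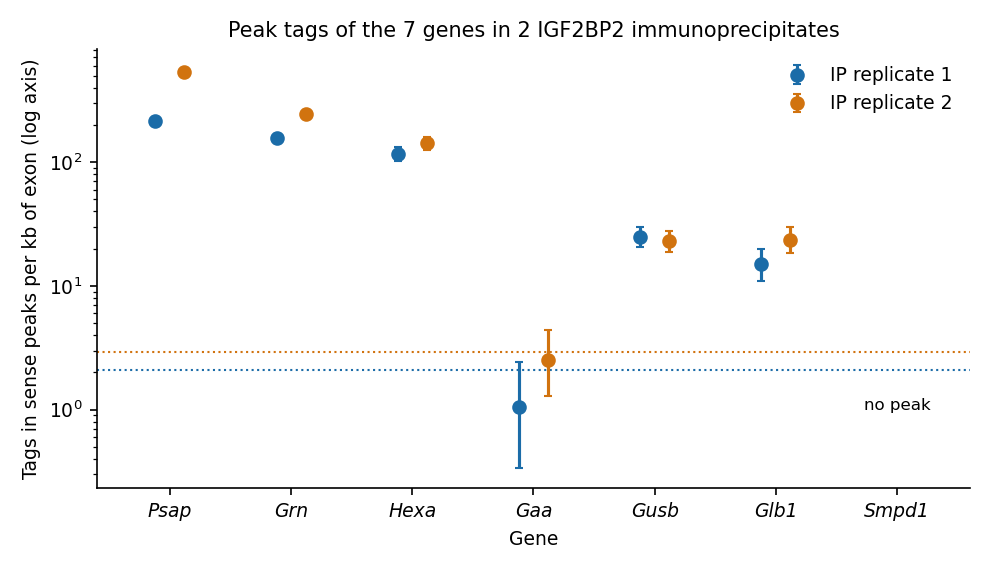
Tags in sense peaks per kb of annotated exon (log axis) for each gene in the 2 IGF2BP2 immunoprecipitation libraries; bars are exact Poisson 95% intervals and dotted lines the median protein-coding gene with a peak in that library. Psap, Grn and Hexa stand at 116 to 535, Gusb and Glb1 at 15.0 to 24.8, Gaa near the dotted lines at 1.05 and 2.51, and Smpd1 had no peak.

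Psap (chr10:60277627-60302597, plus strand, 15 exons in transcript Psap-205) had few but very large peaks. Replicate 1 had 2 sense peaks with 589 tags in all, and replicate 2 had 3 with 1467. The strongest peak of each library was at the same place, chr10:60295496-60296719 with 445 tags in replicate 1 and chr10:60295437-60296857 with 606 in replicate 2. It was 1224 and 1421 nt long and enclosed exon 7, and its summit was the first base of that exon, 60295946, in both libraries. Thus the stack of tags was highest exactly where the exon printed above begins, while 95% and 96% of the peak's length was intron by the authors' annotation. Over all peaks of these genes, 3 of 29 (10.3%) and 6 of 30 (20%) had a summit at the lower-coordinate end of an exon. On the plus strand that end is the exon's first base. Among all sense peaks of protein-coding genes the share was 12.6% and 12.2%.

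The other shared Psap position was at exon 3. In replicate 1 a peak of 144 tags covered chr10:60292357-60292681, with its summit at 60292577 in exon 3. In replicate 2 a longer peak of 513 tags ran from 60290718 to 60292715, took in exons 2 and 3 and had its summit at 60291713 in exon 2. The summits were 864 nt apart, the largest distance among the overlapping peaks of these genes. Replicate 2 also had a peak of 348 tags over 3245 nt, chr10:60277726-60280970, which began in exon 1 and reached into intron 1, and replicate 1 had no partner for it.

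No sense peak touched a Psap exon beyond exon 7 in either library. The 8 exons from exon 8 to exon 15 make up 1768 nt, or 66.5% of the mRNA. Peaks on the opposite strand did lie there, 7 in replicate 1 with 41 tags and 4 in replicate 2 with 24 tags. In all, sense peaks covered 7.90% of the Psap coding sequence in replicate 1 and 18.3% in replicate 2.

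**Figure D2:**
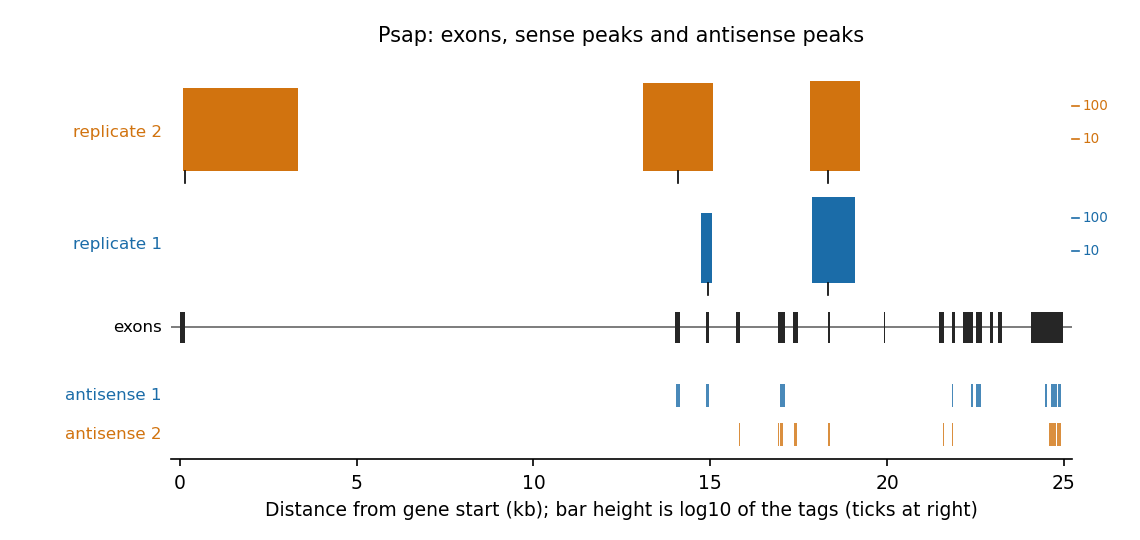
Map of Psap along the distance from the gene start in kb, with exons in black, sense peaks as bars whose height is the log10 of their tags, summits as short ticks under the bars, and antisense peaks as small boxes, for each library. The 2 sense peaks of replicate 1 and the 3 of replicate 2 all lie at exons 1 to 7, while antisense peaks also lie at exons 9 to 15.

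Grn (chr11:102430315-102437048, plus strand, 13 exons in Grn-201) was covered by peaks over most of its coding sequence. It had 6 peaks with 543 tags in replicate 1 and 5 with 851 in replicate 2, and every one of them overlapped a peak of the other library. Exons 2, 4, 5, 6, 7, 8, 9 and 11 lay whole within peaks in both libraries, exons 3 and 10 in replicate 2, and exons 1, 12 and 13 were touched in neither. Peaks covered 57.7% of the coding sequence in replicate 1 and 78.3% in replicate 2, the highest share of these genes in replicate 2.

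The strongest Grn peak had 169 tags in replicate 1, at chr11:102433486-102434277 over exons 4 to 6, and 431 in replicate 2, at chr11:102433486-102434531 over exons 4 to 7. Both began at the first base of exon 4. In replicate 1 exon 7 had a peak of its own with 109 tags, whose summit at 102434431 was 1 nt from the replicate 2 summit at 102434432. The peak at exon 8 had 104 tags in replicate 1 and 93 in replicate 2, and in both it began at the first base of the exon. The peak at exon 9 had 53 tags in replicate 1 and 55 in replicate 2, and ended at that exon's last base in both. The last one, with 77 tags in replicate 1 and 171 in replicate 2, had its summit at the last base of exon 11, 102435942, in both.

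Hexa (chr9:59539540-59565109, plus strand, 14 exons in Hexa-201) encodes the alpha subunit of beta-hexosaminidase A, the enzyme that splits GM2 ganglioside. It had 8 peaks in each library, with 232 tags in replicate 1 and 283 in replicate 2, and 6 of the 8 overlapped in each. The strongest lay at the last exon, exon 14, with 73 tags at chr9:59564692-59565233 in replicate 1 and 91 tags at chr9:59564821-59565095 in replicate 2. Their summits, 59564878 and 59564879, were 1 nt apart and within the coding sequence, although the 3′ UTR was the largest region of the peak by the authors' annotation (41% and 77%).

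Smaller Hexa peaks had their summits in exons, but many also reached into introns. By the authors' annotation the peaks at exon 2 were 57% and 59% intron in replicate 1 and replicate 2. Those at exon 4 were 72% and 80% intron, and those at exon 11 were 23% and 25%. At exon 3 the peak was chr9:59555339-59555404 in both libraries, exactly the exon of 66 nt printed above, with 21 tags in replicate 1 and 18 in replicate 2. At exon 2 the peaks had 24 and 21 tags, at exon 4 they had 19 and 30 (the one of 30 also reached exon 5), at exon 7 they had 14 and 28, and at exon 11 they had 27 and 43, in replicate 1 and replicate 2 in that order. The summit at exon 4 was the first base of the exon, 59556872, in both. Peaks at exons 1 and 13 were found in replicate 1 alone, with 19 and 35 tags, and peaks at exons 9 and 10 in replicate 2 alone, with 26 tags each. Exons 6, 8 and 12 were touched in neither library.

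Gusb (chr5:129989011-130003049, minus strand, 12 exons in Gusb-201) encodes beta-glucuronidase, which removes glucuronic acid from glycosaminoglycans. It had 6 peaks with 113 tags in replicate 1 and 5 with 104 in replicate 2, of which 3 overlapped. Those lay at exons 9, 10 and 12. At exon 9 the peaks had 27 tags in replicate 1, over exactly the exon printed above, and 36 in replicate 2, and both had their summit at 129995531, the first base of that exon on this strand. At exon 10 they had 13 and 18 tags with summits 6 nt apart. At exon 12 they had 29 and 16 tags with summits 292 nt apart, in coding sequence in replicate 1 and in the 3′ UTR in replicate 2. The remaining peaks differed in place, at exons 4, 5 and 8 in replicate 1 (12, 11 and 21 tags) and at exons 1 and 2 in replicate 2 (19 and 15 tags).

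**Figure D3:**
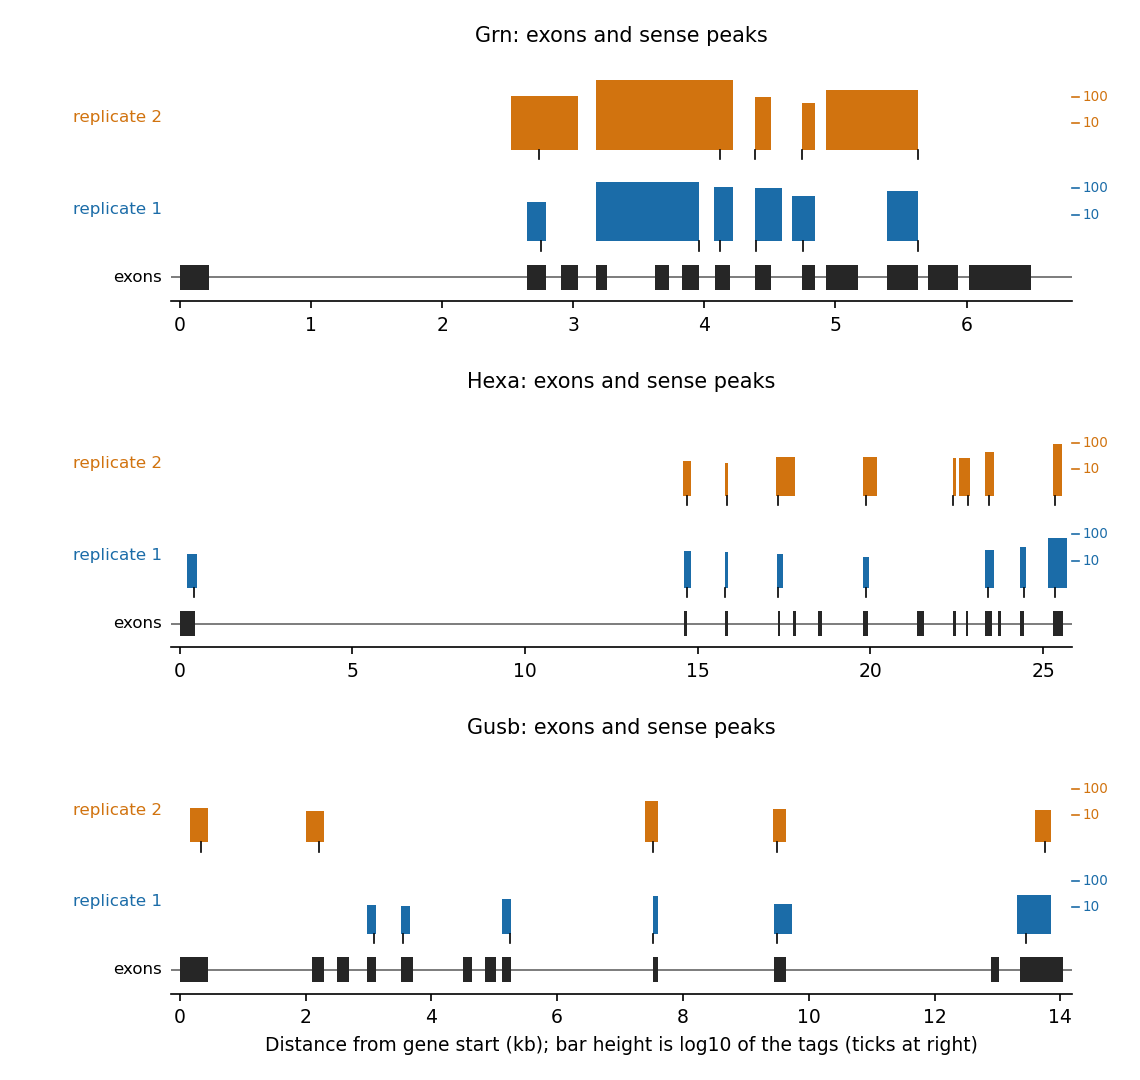
Maps of Grn, Hexa and Gusb along the distance from the gene start in kb, with exons in black and the sense peaks of each library as bars whose height is the log10 of their tags; short ticks mark summits. All summits of these 3 genes fall on exons in both libraries, and exons 1, 12 and 13 of Grn hold no peak.

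Glb1 (chr9:114401076-114474898, plus strand, 16 exons in Glb1-201), which encodes lysosomal beta-galactosidase, differed from the genes above in that most of its peaks lay off its exons. It had 6 peaks with 45 tags in replicate 1 and 7 with 71 in replicate 2. Of these, 5 in replicate 1 and 4 in replicate 2 held no base of any annotated Glb1 exon. The gene Tmppe lies on the same strand within the Glb1 span, and its second exon, chr9:114404521-114407276, falls in intron 1 of Glb1. That exon holds 3 of the Glb1 peaks of replicate 1, with 24 of the 45 tags, and 1 of those of replicate 2, with 20 of the 71. Neither list names a peak for Tmppe, and reads of the genes cannot be told apart there from these files.

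The single Glb1 position found in both libraries was inside the Tmppe exon, at chr9:114406428-114406811 with 10 tags in replicate 1 and chr9:114406424-114406860 with 20 in replicate 2, with summits 4 nt apart. Without the peaks in that exon, a choice made after seeing the data, Glb1 had 21 tags in replicate 1 and 51 in replicate 2, or 6.98 and 17.0 tags per kb of exon, no shared position, and the count of genes with an overlapping peak was 4 of 7. Of the tags left, 15 in replicate 1 and 25 in replicate 2 were in peaks with no exon base. The peaks at Glb1 coding exons were weak and were not shared. They lay at exon 8 in replicate 1, with 6 tags, and at exons 3, 4 and 6 in replicate 2, with 9, 7 and 10 tags.

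**Figure D4:**
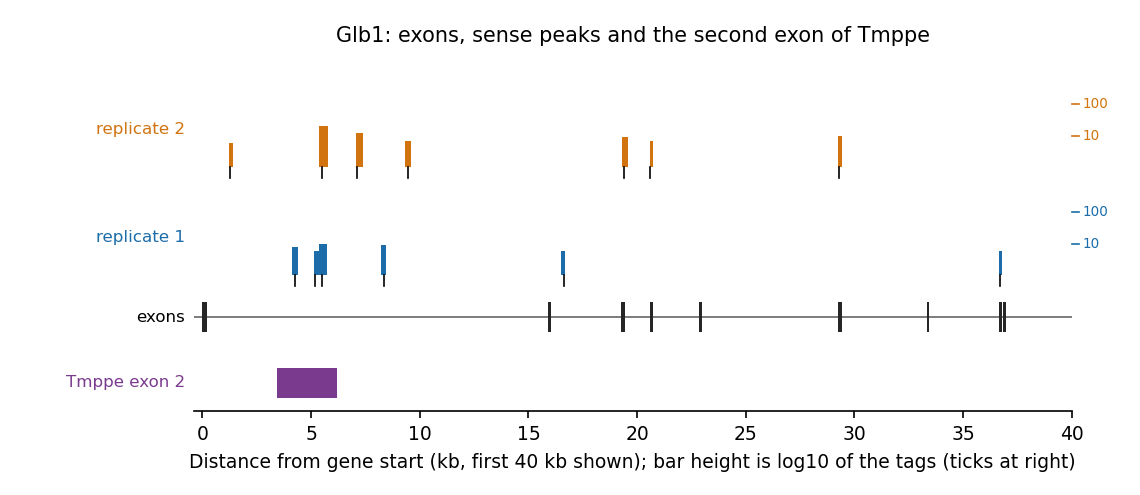
Map of the first 40 kb of Glb1 from the gene start, with its exons in black, the second exon of Tmppe in purple below, and the sense peaks of each library as bars whose height is the log10 of their tags. The shared pair of 10 and 20 tags lies over the Tmppe exon, between the first and second exons of Glb1.

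Gaa (chr11:119267887-119285454, plus strand, 20 exons in Gaa-203), the acid alpha-glucosidase that degrades glycogen in lysosomes, was near the lower limit of the lists. It had 1 peak of 5 tags at exon 7 in replicate 1, and peaks of 6 tags at exon 11 and at exon 12 in replicate 2, none of them shared. Over all peaks, 27.1% in replicate 1 and 24.3% in replicate 2 had fewer tags than these. Smpd1 (chr7:105554360-105558389, plus strand, 6 exons in Smpd1-201), the acid sphingomyelinase, had no peak on either strand in either library. Since the lists hold only peaks of at least 3 tags and the total depth is unknown, no upper limit can be set for it.

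The authors' region labels and the summits gave different pictures of these genes. By the region covering most of each peak, 55.0% of the genes' tags in replicate 1 (exact binomial 95% interval 52.5 to 57.5) and 75.1% in replicate 2 (73.4 to 76.7) were intronic. Over all sense peaks of protein-coding genes the share was 34.2% and 40.4%. Psap carried most of this: without it the share was 26.8% and 47.4%. When the region was instead read at the summit, from the gene's main transcript, 2.55% of the tags in replicate 1 and 1.61% in replicate 2 were intronic. The peaks with an intronic summit, 5 of 29 and 4 of 30, all belonged to Glb1, and over all sense peaks of protein-coding genes 30.1% and 30.8% had one.

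Many of the peaks crossed splice sites. An exon boundary lay inside 16 of 29 peaks in replicate 1 (55.2%) and 15 of 30 in replicate 2 (50%), against 19.5% and 22.6% of all sense peaks of protein-coding genes. Among peaks of at least 10 tags, a limit set after seeing the data, it was 15 of 23 and 14 of 24, against 30.2% and 31.2%. Counted separately, and with some peaks in both counts, 15 of 29 and 18 of 30 started at the first or ended at the last base of an annotated exon, against 43.0% and 42.4% of all sense peaks. No peak of Psap did so in either library.

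Where peaks of these genes overlapped between the libraries, their summits lay close together. There were 18 such pairs in 5 genes, with summits 0 to 864 nt apart and a median of 5.5 nt. The summits were within 10 nt in 12 of the 18 pairs (66.7%), and at the same base in 4. Over all 5064 pairs of protein-coding genes the median distance was 30 nt and 29.8% were within 10 nt. Among the 2985 pairs with at least 10 tags in both libraries, as all 18 had, it was 30 nt and 30.2%. The extent of the peaks was not as alike: the overlap covered a median of 54.2% of the joint length, against 61.7% over all pairs. Replicate 2 had the higher count in 14 of 18 pairs, against 74.5% of all pairs.

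**Figure D5:**
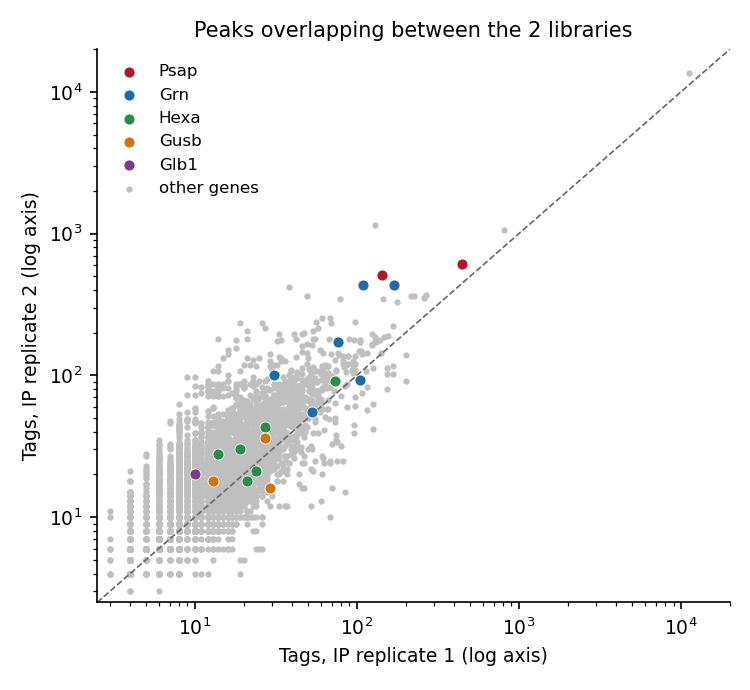
Tags in replicate 1 (x) and replicate 2 (y), both on log axes, for each pair of overlapping sense peaks, with the pairs of 5 genes in colour, all others in grey and the line of equal tags dashed. The Psap pairs (445 and 606, 144 and 513 tags) and the Grn pairs that share the replicate 2 peak of 431 tags are near the upper end, and 14 of the 18 coloured points lie above the line.

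The density of GGAC in the exonic bases of the peaks had overlapping counting intervals in the libraries. It occurred 10 times in 3753 nt in replicate 1, or 2.66 per kb (exact Poisson 95% interval 1.28 to 4.90), and 19 times in 4166 nt in replicate 2, or 4.56 per kb (2.75 to 7.12). Over all sense peaks of protein-coding genes it was 5.02 and 4.94 per kb, and the whole mRNAs of the 6 genes with a peak ranged from 3.01 per kb in Hexa to 9.18 in Glb1. The replicate 1 interval lay just below the value over all peaks, and the replicate 2 interval held it. Between genes, Grn peaks had 0.960 per kb in replicate 1 and 2.12 in replicate 2, Hexa peaks 0.865 and 1.96, Gusb peaks 5.08 and 7.09, Psap peaks 7.58 and 6.19, Gaa peaks 8.40 and 0, and Glb1 peaks 0 and 15.7. Each of these rests on 0 to 7 matches, and the values of Gaa and Glb1 in replicate 1 on 119 and 122 nt. Of the peaks with exonic bases, 9 of 24 and 13 of 26 held GGAC, against 50.7% and 51.2% of all such peaks, whose lengths differ. A match describes the letters and is not a site.

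Among all protein-coding genes with a sense peak in both libraries (3739), those nearest to Psap in summed tags had many more peaks. On the log2 scale of tags over the 2 libraries, the distance to Psap was 0.17 for Flna, which encodes filamin A (658 tags in 18 peaks in replicate 1 and 1402 in 19 in replicate 2), 0.23 for the ubiquitin ligase gene Cblb (582 in 18 and 1250 in 33) and 0.28 for the receptor phosphatase gene Ptprj (625 in 21 and 1763 in 36). The nearest to Grn were the scavenger receptor gene Stab1 at 0.12 (552 tags and 926), the endocytic scaffold gene Itsn1 at 0.17 (488 and 897) and the non-muscle myosin gene Myh9 at 0.18 (592 and 778). These 6 genes had 18 to 36 peaks in a library, whereas Psap had 2 and 3 and Grn 6 and 5. The match was on summed tags alone, with no regard to exon number or gene length. Few peaks with many tags were not particular to Psap and Grn, as 2 genes picked after seeing the values show. Actb had 330 and 423 tags in 3 peaks in each library, and Ahnak had 440 in 5 and 1073 in 8.

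A list of 49 genes was looked up, mainly of other soluble lysosomal proteins and the sorting partners of these proteins. Of these, 28 (57.1%) had a sense peak in both libraries, against 17.0% of all protein-coding genes, and 24 had overlapping ones. There were 30 with a peak in replicate 1 and 41 in replicate 2. The list was chosen with earlier results of these data known, and the background was not limited to genes expressed in these cells. The shares and medians therefore describe the list and carry no test. The 28 had a median of 8.15 and 10.2 tags per kb of exon, against 2.52 and 4.33 over all genes with a peak in both libraries. Genes among those with the most tags are given with their tags per kb of exon in replicate 1 and then in replicate 2. Lrp1, an endocytic receptor that takes up prosaposin, had 122 and 197 tags per kb of exon (2160 and 3488 tags). Ctsa, whose product protects beta-galactosidase, had 33.5 and 62.4, and Man2b1, the lysosomal alpha-mannosidase, had 17.2 and 30.7. Igf2r, a mannose 6-phosphate receptor that carries hydrolases, had 15.7 and 21.2, and the acid lipase gene Lipa had 17.8 and 23.9. Psap and Grn lay above these 5 in both libraries. The other mannose 6-phosphate receptor gene on the list, M6pr, was lower than Igf2r, with 7.43 and 4.08.

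Partners of these proteins were both lower and higher than the genes they serve, and the pairs given here were chosen after their values were seen. Hexa had 116 tags per kb of exon in replicate 1 and 142 in replicate 2, against 6.06 in each for Gm2a (25 tags in each), the activator protein of GM2 breakdown. Glb1 had 15.0 and 23.6, against the higher 33.5 and 62.4 of Ctsa. Sort1, the sortilin receptor for progranulin, had 3.57 and 1.59 tags per kb of exon (27 and 12 tags). No sense peak was listed in either library for Elane, Hyal2, Plbd1, Slpi, Tmem106b or Rnaset2b, of which the last has a near copy, Rnaset2a, so that reads may be split between them.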

How the data were processed

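The report uses 2 deposited peak lists, 1 for each IGF2BP2 immunoprecipitation library, with groups and replicate numbers from the sample titles. The submitters' processing notes name bcl2fastq, TopHat2 and GRCm38. How peaks were called, at what threshold and whether against input is not given in the sources used here. Each peak was deposited with a tag count, in whole numbers and not normalized, and with a maximum height, a coverage signal per the file headers, used in 1 alternative. The listed start and summit were found to be counted from 0: 1 base added made 29.4% and 29.0% of sense peaks begin exactly at an annotated exon, against 0.207% and 0.210% as listed. Coordinates are printed with that base added. The deposited lengths equal the listed end minus the listed start plus 1, as if counted from 1. Lengths given here are therefore 1 nt shorter than those deposited.

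Gene identifiers were matched without version to GENCODE mouse release 21 (99.7% and 99.8% of those given), which supplied exons, transcripts and sequence. Each gene's main transcript was the one ranked first by APPRIS and then by length. Python 3.11.15, pandas 2.3.3, numpy 2.4.6 and scipy 1.17.1 were used, and the overlap code was checked on simulated intervals. No test between groups was possible, so values are given per library with exact 95% intervals for counting error.

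The genes and lists were chosen with earlier results of these data known. Named are the 7 genes, the 3 genes nearest to Psap and to Grn in log2 tags, and of the lysosomal list the 6 with the most tags in both libraries and those with no peak; other names were chosen after seeing values, and some items that these rules name are not reported here. Alternatives were a minimum of 6 or 10 tags, overlap of at least 50% or at the summits, other region and length measures, maximum height, each library alone, and those marked as chosen after seeing the data.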

Additional observations from a re-analysis of the deposited data

Results flagged for a closer look

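Psap had peaks on the strand opposite to the gene, which the counts of the report leave out. There were 10 in replicate 1 with 66 tags in all and 9 in replicate 2 with 44, each of 4 to 15 tags, and no other of the 7 genes had any. In replicate 1 all 10 lay wholly within Psap exons and in replicate 2 8 of 9 did, against 35.4% and 36.3% of all antisense peaks named for protein-coding genes. In replicate 1, 6 of them started or ended at an exon edge, and 1 covered exactly exon 3 (chr10:60292505-60292579, 6 tags). In each library 4 overlapped one of the other. Genes with at least as many antisense peaks numbered 2 in replicate 1 and 5 in replicate 2, Psap included. What gave rise to them was not tested.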

How the results depend on the processing

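The share of the genes' tags in intronic peaks depended on how the region was read. It was 55.0% in replicate 1 and 75.1% in replicate 2 by the authors' main region. With the annotation at the summit it was 2.55% and 1.61%, by bases outside annotated exons 50.3% and 66.1%, with every peak counted once 34.5% and 46.7%, and without Psap 26.8% and 47.4%. Without Psap and with the annotation at the summit, a pair of changes chosen after seeing the data, it was 4.16% and 3.41%. A search for DRACH in place of GGAC, a motif with more permitted letters, gave 22.1 matches per kb in replicate 1 (interval 17.6 to 27.4). In replicate 2 it gave 19.2 (15.2 to 23.9). Over all sense peaks of protein-coding genes it was 19.6 and 19.8 per kb, values that both intervals held. The cause of the other changes was not tested. The count of genes with a peak in both libraries was 5 with a minimum of 6 or 10 tags, where Gaa dropped out. Either library alone had 6 genes with a peak. Genes with an overlapping peak numbered 5 under 4 alternatives run and 4 without the Glb1 peaks in the Tmppe exon. Of the lysosomal list, 28 genes had a peak in both libraries, 27 with at least 6 tags and 19 with at least 10. In a single library it was 30 in replicate 1 and 41 in replicate 2. The order of the genes by tags per kb was the same in 3 of 6 alternatives. With the gene span as length Grn came before Psap in both libraries, and Gusb came before Glb1 in replicate 2 as well as in replicate 1. With summed maximum height Hexa came before Grn in replicate 2. No paired analysis was possible because values of the input libraries, which share the replicate numbers, were not used here. Total depth is unknown, so a missing peak does not show that a gene lacked tags.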
